A study of Homo sapiens with 4 samples.

Results

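The genes described here are 47 that proliferating cells use to copy and divide their DNA, 18 acting mainly around the start and course of S phase and 29 mainly in G2 and mitosis. They were chosen by name, as rows whose gene symbol was on this list, and 45 of the 47 were measured among 15073 named genes, 17 of S phase and 28 of mitosis. MCM2 and AURKB were not analysed here. Each gene is given in its brightest row.

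The RNA came from CAL-27, a cell line made from a human squamous carcinoma of the tongue and grown with 10% serum. It was hybridised to 1-colour NimbleGen arrays. Parental cells were compared with a derivative selected for cisplatin resistance by exposure rising from 1e-07 M to 1e-05 M. Cisplatin crosslinks DNA and so blocks its copying. Each group held 2 arrays, which the series calls biological replicates without saying whether they were separate selections or cultures. The p-values therefore set a difference against the spread between these arrays, joined with a variance estimated over all genes. They cannot be extended to other selections of the line. Whether the resistant cells were 1 clone, and whether drug was present at harvest, was not stated in the labels. Squamous epithelial markers had a median of 14.18 over 10 markers in parental and 11.24 in resistant arrays on the log2 scale, the dimmest at 10.28 and 5.06. In resistant arrays PKP1 (5.06) and DSG3 (6.52) lay below the array medians. Of these 10 markers, 6 fell and 0 rose. CDH1 (12.09 in parental and 12.85 in resistant arrays) and EPCAM (12.06 and 12.98) lay higher in both resistant arrays without passing. KRT5 and KRT17 were lower without passing and stayed bright in resistant arrays, at 15.27 and 14.52. A second fit, described below, called 7 of the 10 lower and 2 higher. Of the other cell types' markers, 0 of 5 leukocyte genes passed, and COL1A1 of 4 fibroblast genes and CDH5 of 4 endothelial genes rose. COL1A1 went from 7.49 in parental to 10.72 in resistant arrays, and CDH5 from 4.23 to 9.25. The leukocyte median was 7.51 in parental and 6.66 in resistant arrays, with CD68 brightest at 11.58 and 11.35. The part of these shifts in the results below was not tested.

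Cells pass from G1 into S phase when cyclin E and CDK2 relieve the RB proteins' block on E2F transcription factors. The E2F factors then drive genes for origin licensing, nucleotide supply and replication. Genes of G2 and mitosis follow later, under B-MYB and FOXM1. Both waves are held down together in resting cells and are high in cycling tumour cells, so their mRNA levels are widely read as a measure of proliferation.

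For 44 of these 45 genes the difference between resistant and parental cells did not pass the test. E2F2, an E2F activator, was the single member to pass limma's test over all genes, with a 2.48-fold fall. Of the 45 members 1 fell and 0 rose, where 2.83% of all genes were called lower and 3.26% higher. The 1 fall is 2.22% of the members, near the share among all genes. Member differences, resistant minus parental, lay between -1.31 and 0.49 on the log2 scale. Those of all genes reached from -9.51 to 6.43, but over many more genes, dim ones included, so these ranges are not comparable. The quartiles were -0.48 and 0.08 for the members and -0.49 and 0.48 for all genes.

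The median difference was -0.13 for the 17 S-phase members and also -0.13 for the 28 mitotic members, against -0.03 for all genes. For genes with a mean of at least 8 it was -0.08, against -0.12 for the 43 members that bright. The S-phase members had quartiles of -0.48 and 0.06, and the mitotic members of -0.48 and 0.10. Among the 8022 genes with a mean of at least 8, the quartiles were -0.48 and 0.36, so the lower quartile of the members was that of other bright genes and their upper quartile lay nearer to 0. No test was made of this. The medians moved with single arrays. The mitotic median was -0.02 without parental replicate 2, -0.24 without parental replicate 1 and -0.27 without resistant replicate 2. The S-phase median was -0.08 without parental replicate 2 and -0.04 without resistant replicate 2. After centring each array on its median the S-phase and the mitotic median were both -0.20, and that of all genes moved likewise, to -0.10. In array averages the 17 S-phase members stood at 10.95 and 10.99 in parental and at 10.75 and 10.74 in resistant arrays. The 28 mitotic members averaged 11.30 and 11.46 in parental and 11.21 and 11.20 in resistant arrays. In both classes the resistant averages lay below both parental ones. RNA of whole cultures was measured, so fewer cells in a phase and less RNA per cell cannot be told apart.

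The members were bright, with means from 7.27 to 14.38, where the median of an array lay between 7.14 and 7.23. The difference between the replicates of a group had an SD of 0.22 in parental and 0.27 in resistant arrays over the members, against 0.41 and 0.34 over genes with a mean of at least 8 and 0.78 and 0.64 over all genes. The main test used 1 prior variance for bright and dim genes alike. A second fit let the prior variance follow intensity and is called the intensity prior. It called 9 members lower (5 without parental replicate 2, and 8 without CKS1B, which was measured by a non-coding transcript) and 1 higher (0 without any 1 array), where it called 11.5% of all genes lower and 9.93% higher. Among genes with a mean of at least 8 it called 19.1% lower and 14.8% higher. Of the 43 members that bright, 9 were lower, or 20.9%, and 1 was higher, or 2.33%. The share of lower calls was thus near that of other bright genes, and the share of higher calls was smaller, a difference that was not tested.

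**Figure D1:**
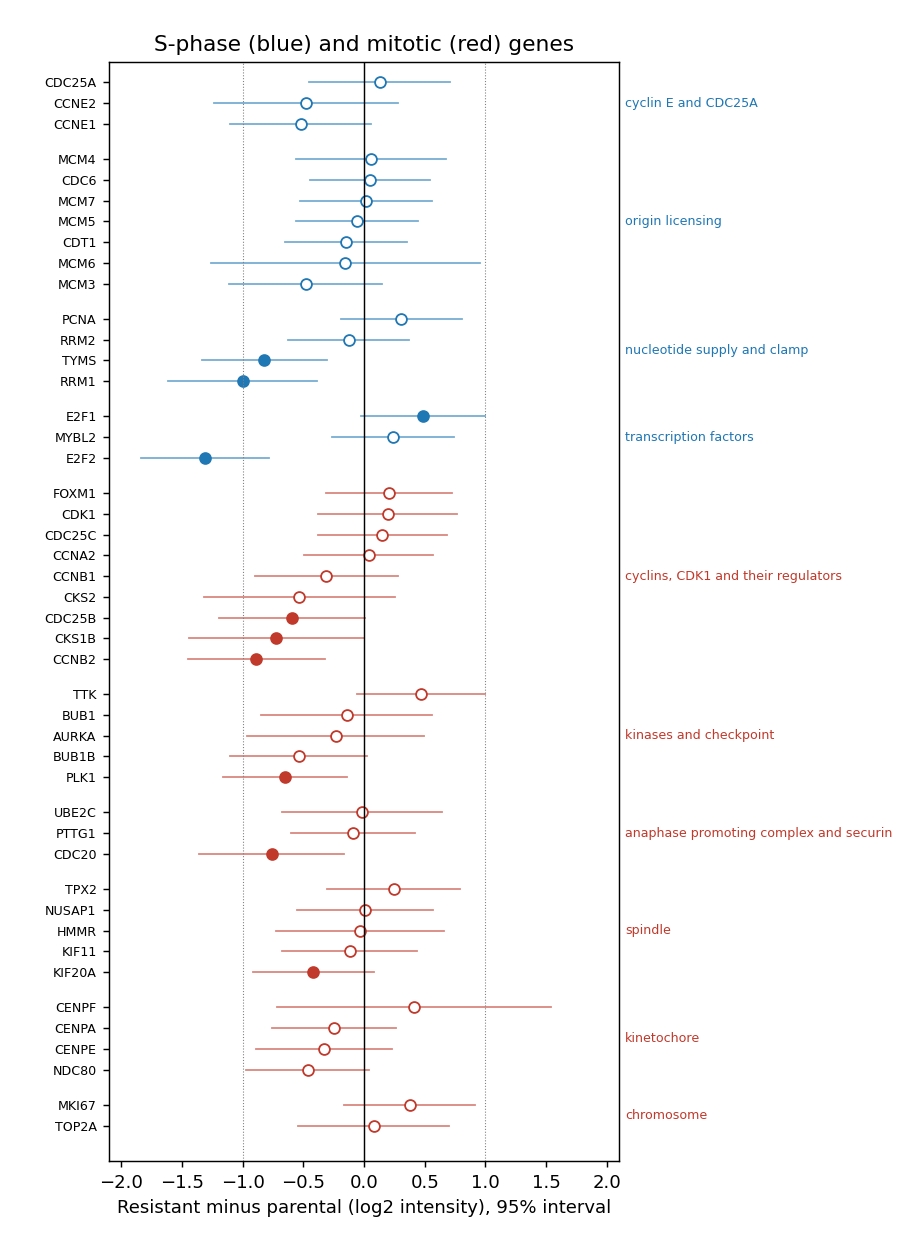
Resistant minus parental difference in log2 intensity for the 45 measured genes, with 95% intervals from the main test (x axis) and genes grouped by role (y axis, S phase in blue, mitosis in red). Filled points passed with the intensity prior. E2F2 lies farthest to the left at -1.31, and no point lies beyond 0.49 on the right.

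Among the transcription factors of S phase, the members differed in opposite directions. E2F2 had values of 10.06 and 9.86 in the parental arrays and of 8.66 and 8.64 in the resistant arrays. The resistant replicates were nearly equal and well below both parental ones. The difference was -1.31 ± 0.19 (± SE, with n = 2 in each group and adjusted p = 0.0467), with a 95% interval from -1.84 to -0.78. With the intensity prior the adjusted p of E2F2 was 0.00245, and it lay between 0.0112 and 0.017 when any 1 of the 4 arrays was left out. Without any 1 array the main test called no gene at all, so its loss of E2F2 there is not particular to E2F2. Over those fits the difference of E2F2 ran from -1.41 to -1.21. Nor was E2F2, or any other named gene, called when all 42152 rows of the array were adjusted together (adjusted p = 0.132 for E2F2).

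E2F1, the best known activator of the family, stood at 10.54 and 10.61 in parental and at 11.00 and 11.12 in resistant arrays. Both resistant values were above both parental ones, opposite to E2F2. The difference of 0.49 ± 0.18 did not pass (adjusted p = 0.189). Under the intensity prior it was called higher (adjusted p = 0.042), though not after centring each array on its median (0.065) and not when any 1 of the arrays was left out (0.0846 to 0.204). MYBL2 encodes B-MYB, which links the S-phase wave to the mitotic one. Its values were 13.95 and 14.00 in parental and 14.18 and 14.25 in resistant arrays, a difference of 0.24 ± 0.18 (adjusted p = 0.453). The groups of MYBL2 did not overlap, with the resistant arrays higher.

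The genes of nucleotide supply held the other large S-phase differences. RRM1 encodes the large subunit of ribonucleotide reductase, which makes deoxyribonucleotides. It measured 10.13 and 9.78 in parental and 8.90 and 9.02 in resistant arrays. The resistant arrays lay lower with no overlap, by -1.0 ± 0.22 on the log2 scale (adjusted p = 0.0836). RRM1 was called lower under the intensity prior (adjusted p = 0.00999), also without any array except resistant replicate 1 (0.0531). RRM2, the small subunit whose level follows S phase, had 10.65 and 10.74 in parental against 10.57 and 10.56 in resistant arrays. Its difference was -0.13 ± 0.18, with a 95% interval from -0.63 to 0.37.

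TYMS encodes thymidylate synthase, the target of fluorouracil. Its values were 10.77 and 10.90 in parental and 9.97 and 10.05 in resistant arrays, a clear gap between the groups. The difference was -0.82 ± 0.18 (adjusted p = 0.087, or 0.00624 under the intensity prior). PCNA, the sliding clamp of DNA polymerases, measured 12.31 and 12.33 in parental and 12.67 and 12.59 in resistant arrays. Its resistant values were the higher ones, by 0.31 ± 0.18 (adjusted p = 0.346), but a dimmer row of PCNA gave -0.07. Dye was built into both strands of the cDNA, so signal of a transcript antisense to a gene would add to that gene's value.

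The cyclin E genes and CDC25A, which push cells over the G1 boundary, did not pass. CCNE1 stood at 9.04 and 9.35 in parental and at 8.66 and 8.68 in resistant arrays (difference -0.52 ± 0.21, adjusted p = 0.208). CCNE2 gave 7.93 and 8.49 against 7.80 and 7.65 (difference -0.48 ± 0.27, adjusted p = 0.336). For both cyclins the resistant arrays were below the parental ones. CDC25A, a phosphatase that activates cyclin-dependent kinases, had overlapping groups, with 8.91 and 8.76 against 8.83 and 9.10, a difference of 0.13 ± 0.21 (adjusted p = 0.734).

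Origin licensing loads the MCM helicase onto DNA with the help of CDC6 and CDT1. Of the 7 measured licensing genes 0 passed with either prior, and their median difference was -0.06. MCM3 had the smallest p of them, with 12.52 and 12.70 in parental and 11.95 and 12.31 in resistant arrays. Its resistant values were lower with no overlap (difference -0.48 ± 0.23, adjusted p = 0.265). With the intensity prior its adjusted p was 0.0623, but 0.0375 without resistant replicate 2 and 0.0329 after median centring. The loading factor gene CDT1 gave 11.44 and 11.52 against 11.32 and 11.35, a difference of -0.15 ± 0.18. MCM7, another subunit of the helicase, differed by 0.02, with a 95% interval from -0.53 to 0.56. The intervals of MCM5 (-0.56 to 0.45), MCM4 (-0.56 to 0.68) and CDC6 (-0.44 to 0.54) were of like width. They leave room for changes of about that size. MCM6 was the dimmest member, differed by -0.15 and spread from 6.71 to 7.68 within the resistant group alone, so its interval of -1.26 to 0.95 was the widest of the licensing genes.

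**Figure D2:**
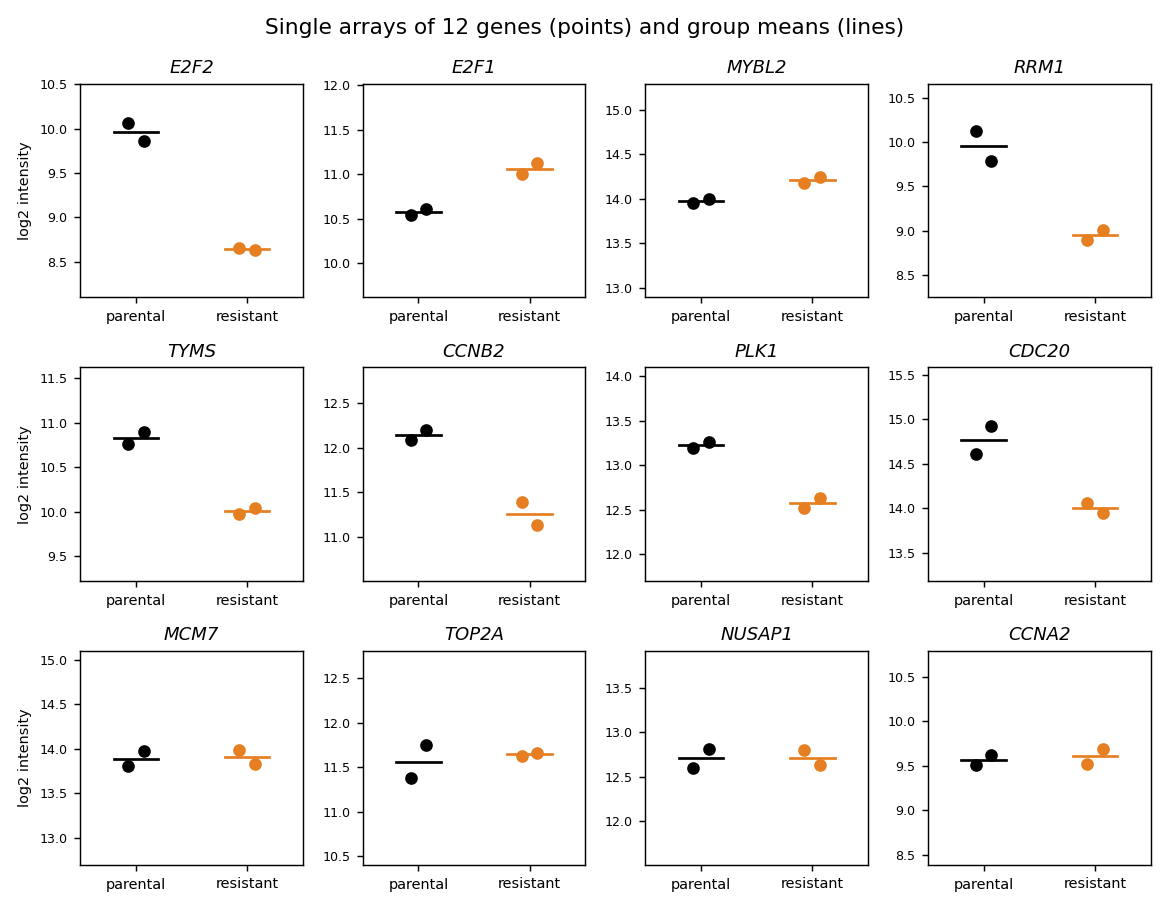
Log2 intensity (y axis) on each array (points) with group means (lines) for 12 members in parental (black) and resistant (orange) cells, every panel spanning the same log2 range. E2F2, RRM1, TYMS, CCNB2, PLK1 and CDC20 lie lower in both resistant arrays, E2F1 and MYBL2 lie higher, and the groups of MCM7, TOP2A, NUSAP1 and CCNA2 overlap.

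Of the 28 mitotic members, 0 passed the main test. An unadjusted p under 0.05 on the lower side was held by 4 of them, against 14.4% of all genes, a like share. With the intensity prior 6 were lower and 0 higher, or 5 and 0 without the non-coding row of CKS1B. The 6 are 21.4% of the mitotic members. That prior called 11.5% of all genes lower and 9.93% higher. Among genes with a mean of at least 8 it called 19.1% lower, near the mitotic share, and 14.8% higher. Both resistant arrays lay below both parental ones in 13 mitotic and 8 S-phase members, and above them in 5 and 4. Over all members this is 46.7% lower and 20.0% higher, against 31.0% and 27.9% of all genes. Among genes with a mean of at least 8 these shares were 40.9% lower and 30.9% higher, against 46.5% and 20.9% of the 43 members that bright.

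In the group of cyclins, CDK1 and their regulators, CCNB2 stood out. CCNB2 encodes cyclin B2, a partner of CDK1 at entry into mitosis. Its values were 12.09 and 12.20 in parental and 11.39 and 11.13 in resistant arrays. The gap between the groups was larger than the spread within either, with a difference of -0.89 ± 0.20 or 1.85-fold (adjusted p = 0.0901). With the intensity prior the adjusted p was 0.00334, and between 0.00508 and 0.0276 without any 1 array. CCNB1, which encodes the related cyclin B1, differed by -0.31 ± 0.21 (adjusted p = 0.409), CCNA2, cyclin A2, by 0.04 ± 0.19, and their kinase CDK1 by 0.20 ± 0.20.

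CKS1B encodes a small adaptor of cyclin-dependent kinases, but its single row is a non-coding transcript that the platform files under this symbol, and a coding CKS1B row was not analysed here. That row gave 10.23 and 10.32 in parental and 9.81 and 9.29 in resistant arrays. The row was lower by -0.72 ± 0.26 (adjusted p = 0.177, or 0.0417 under the intensity prior). This call was lost without parental replicate 1 (0.0933), parental replicate 2 (0.142) or resistant replicate 2 (0.234, difference -0.46). CDC25B, a phosphatase that activates CDK1, gave 14.28 and 14.56 against 13.93 and 13.72. Its difference was -0.59 ± 0.21 (adjusted p = 0.181, or 0.0247 under the intensity prior, lost without parental replicate 2 at 0.144 or resistant replicate 2 at 0.152). The other row of CDC25B gave -0.90. The adaptor gene CKS2 differed by -0.53 and was called lower with the intensity prior without resistant replicate 2 (difference -0.83, adjusted p = 0.017), not with all arrays (0.0979). The phosphatase gene CDC25C differed by 0.15 and FOXM1, the transcription factor of the mitotic wave, by 0.21 ± 0.19 (adjusted p = 0.529). The 3 rows of FOXM1 ranged from 0.10 to 0.31.

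The kinases of mitosis and its checkpoint went both ways. PLK1, polo-like kinase 1, was 13.19 and 13.26 in parental and 12.52 and 12.63 in resistant arrays. Its replicates were close and its groups far apart, with a gap of -0.65 ± 0.18 (adjusted p = 0.122). PLK1 was called lower under the intensity prior (adjusted p = 0.00737, and 0.024 to 0.0492 without any 1 array). BUB1B, the checkpoint protein BUBR1, had 9.37 and 9.48 against 9.02 and 8.76, a difference of -0.54 ± 0.20 (adjusted p = 0.191) with no overlap. TTK, the checkpoint kinase MPS1, lay the other way by 0.47 ± 0.19 (adjusted p = 0.211). The kinase genes AURKA and BUB1 differed by -0.23 and -0.14, with overlapping groups.

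The anaphase-promoting complex marks cyclin B and securin for destruction so that sister chromatids can part. CDC20, its activator, measured 14.61 and 14.92 in parental and 14.06 and 13.95 in resistant arrays. The resistant arrays were lower by -0.76 ± 0.21 or 1.70-fold (adjusted p = 0.122, or 0.00848 under the intensity prior). That call was lost without parental replicate 2 (0.0621) or resistant replicate 2 (0.0544). UBE2C, the complex's ubiquitin-conjugating enzyme, had overlapping groups, with 13.92 and 13.78 against 13.63 and 14.04. Its difference was -0.02 ± 0.24. PTTG1, which encodes securin, gave 11.54 and 11.69 against 11.54 and 11.51, a difference of -0.09 ± 0.18. Thus 1 of these 3 genes passed with the intensity prior.

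Of the spindle genes, KIF20A had the smallest p. KIF20A, a kinesin needed for cytokinesis, stood at 12.41 and 12.48 in parental and at 12.01 and 12.06 in resistant arrays. It differed by -0.42 ± 0.18 (adjusted p = 0.232, or 0.0448 under the intensity prior, but 0.0863 to 0.179 without any 1 array). TPX2, an activator of Aurora A, gave 11.58 and 11.68 against 11.98 and 11.77, which is 0.25 ± 0.20 with the resistant arrays higher. The spindle motor gene KIF11 (-0.12), the microtubule-binding gene NUSAP1 (0.01) and HMMR (-0.03) had overlapping groups. The 95% interval of NUSAP1 ran from -0.55 to 0.57.

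At the kinetochore, which ties chromosomes to the spindle, 0 of 4 genes passed with either prior. NDC80, a microtubule-binding subunit, measured 10.00 and 9.96 in parental and 9.57 and 9.46 in resistant arrays (difference -0.47 ± 0.18, adjusted p = 0.201). CENPE, a kinetochore motor, gave 9.58 and 9.85 against 9.36 and 9.42, and CENPA, the centromeric histone, 10.85 and 10.87 against 10.54 and 10.68. Both lay lower with no overlap, by -0.33 ± 0.20 and -0.25 ± 0.18. CENPF spread most between parental replicates of all members, at 8.12 and 9.01, against 9.22 and 8.74 in resistant arrays. Its difference of 0.41 ± 0.40 could not be told from 0.

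The chromosome genes did not share the lower side. MKI67, which encodes the proliferation antigen Ki-67, was 11.47 and 11.64 in parental and 11.86 and 11.998 in resistant arrays. Both resistant arrays were higher, by 0.38 ± 0.19 (adjusted p = 0.296). TOP2A, the topoisomerase that untangles sister chromatids, had 11.37 and 11.75 against 11.63 and 11.65. Its groups overlapped, and the difference of 0.08 had an interval from -0.54 to 0.70.

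Of the 10 members with several rows, 6 had rows of opposite sign. These were CDK1 (0.20 and -0.25), CDC25C (0.15 and -0.27), PCNA (0.31 and -0.07), NUSAP1 (0.01 and -0.15), UBE2C with 4 rows from -0.13 to 0.16 and HMMR with 4 rows from -0.21 to 0.36. The rows of CDC25A (0.13 and 0.44), CENPA (-0.25 and -0.50), CDC25B and FOXM1 kept 1 direction each but differed in size.

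The classes differ in their promoters. Promoter letters were not used to choose the genes, but the classes follow the E2F and mitotic waves described above. The motif shares are therefore not independent of that choice. Bases before the annotated start were taken from RefSeq (GRCh38.p14) for 39 of the 47 genes, 15 of S phase and 24 of mitosis. The 250 bases before the start were searched on both strands for E2F motifs (TTTCGCGC, TTTGGCGC or TTTCCCGC), for the cell cycle homology region (TTTGAA or TTCGAA), a motif of mitotic promoters, and for the NF-Y box (CCAAT). Matches may overlap each other. An E2F motif was found in 9 of 15 S-phase promoters (60.0%) and in 2 of 24 mitotic ones (8.33%), against 2.38% of all 27305 promoters. The cell cycle homology region was found in 2 S-phase (13.3%) and 12 of 24 mitotic promoters, against 14.6% of all. The NF-Y box was in 60.0% of S-phase and 79.2% of mitotic promoters, against 33.0% of all. Among the 11797 promoters matched to the genes tested here, the shares were 3.31% for E2F motifs, 11.5% for the homology region and 34.8% for the NF-Y box.

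**Figure D3:**
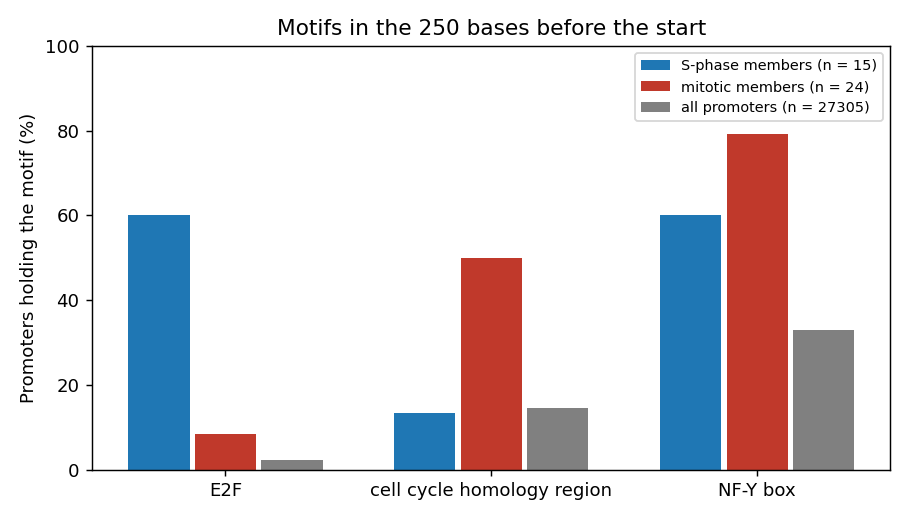
Share of promoters (y axis, %) holding each motif at least once in the 250 bases before the start, for S-phase members (blue), mitotic members (red) and all promoters (grey). E2F motifs are most frequent in the S-phase class at 60.0%, and the cell cycle homology region in the mitotic class, in 12 of 24.

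Promoters are shown for the S-phase and the mitotic gene with the smallest p, E2F2 (chr1:23531234-23531483, minus strand) and CCNB2 (chr15:59104896-59105145, plus strand). Beside each stands the gene of its class with the largest p among those holding the same motif in a window clear of other annotated genes (which left out MCM7, with a larger p than MCM6), MCM6 (chr2:135876444-135876693, minus strand) and HMMR (chr5:163460382-163460631, plus strand). They run 5′ to 3′ toward the start, with motif matches in capitals.

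E2F2: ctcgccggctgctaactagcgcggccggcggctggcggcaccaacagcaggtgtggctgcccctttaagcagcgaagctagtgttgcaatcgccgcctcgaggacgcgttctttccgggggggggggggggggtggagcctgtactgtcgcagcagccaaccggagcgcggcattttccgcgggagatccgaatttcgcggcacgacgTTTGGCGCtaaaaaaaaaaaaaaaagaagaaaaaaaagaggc

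MCM6: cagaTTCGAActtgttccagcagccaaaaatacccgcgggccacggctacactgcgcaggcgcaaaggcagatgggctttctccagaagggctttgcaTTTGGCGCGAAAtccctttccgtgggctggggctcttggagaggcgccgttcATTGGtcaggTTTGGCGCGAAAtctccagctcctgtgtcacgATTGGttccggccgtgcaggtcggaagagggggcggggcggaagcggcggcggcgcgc

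CCNB2: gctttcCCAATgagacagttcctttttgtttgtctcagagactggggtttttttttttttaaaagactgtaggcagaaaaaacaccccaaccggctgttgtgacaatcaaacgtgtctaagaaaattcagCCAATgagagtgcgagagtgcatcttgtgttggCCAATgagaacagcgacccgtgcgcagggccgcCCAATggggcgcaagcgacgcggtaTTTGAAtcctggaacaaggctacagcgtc

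HMMR: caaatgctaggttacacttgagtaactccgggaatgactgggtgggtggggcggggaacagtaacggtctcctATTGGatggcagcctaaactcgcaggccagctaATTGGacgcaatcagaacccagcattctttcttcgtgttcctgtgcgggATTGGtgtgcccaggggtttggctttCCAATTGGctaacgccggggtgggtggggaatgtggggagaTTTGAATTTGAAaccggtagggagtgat

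E2F2 held 1 E2F motif, at positions -42 to -35 from the start, while MCM6 held E2F matches on both strands around positions -152 to -141 and -90 to -79. CCNB2 had the homology region at -29 to -24 and 4 NF-Y boxes, and HMMR had it at -28 to -23 and again at -22 to -17. An E2F motif stood before E2F2, which fell by 1.31, and before MCM6, which differed by -0.15. The 95% interval of MCM6, from -1.26 to 0.95, is too wide to tell whether it was unchanged or lower. MCM6 also held a homology region match and NF-Y boxes, which E2F2 did not. Among measured S-phase members the median difference was -0.15 in the 9 with an E2F motif and -0.13 in the 5 without. Among mitotic members it was -0.39 in the 12 with the homology region and -0.14 in the 11 without. The NF-Y box went the other way, at -0.13 in the 18 mitotic members with it and -0.47 in the 5 without, and at 0.02 in the 9 S-phase members with it and -0.52 in the 5 without. These matches are descriptions of letters and were not tested against the differences.

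Genes of the same pathways outside the list had 1 call in the main test, NCAPG. Of 40 measured replication genes 0 passed the main test, with a median difference of -0.15. With the intensity prior 8 of the 40 were lower, or 20.0%, and 1 was higher. Among genes with a mean of at least 8 that prior called 19.1% lower and 14.8% higher. The share of lower replication genes was thus near that of bright genes. Their share of higher calls was smaller, which was not tested. POLA1, the catalytic subunit of the polymerase that starts each new strand, had 11.05 and 11.26 in parental and 10.09 and 10.01 in resistant arrays. It was lower by -1.11 ± 0.19 (adjusted p = 0.0609, or 0.00157 under the intensity prior). PRIM2, a primase subunit of the same complex, lay the other way, at 7.20 and 7.47 against 8.49 and 8.23 (difference 1.03 ± 0.22, adjusted p = 0.082, or 0.0589 under the intensity prior). The remaining subunits PRIM1 (-0.11) and POLA2 (-0.09), chosen after their values were seen, lay near 0. PRIM2 has a near-identical copy in the genome, so its value is uncertain. TOPBP1, a checkpoint and replication initiation protein, differed by -0.70 ± 0.18 (adjusted p = 0.112).

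Of 59 other mitosis genes 1 rose (1.69%, against 3.26% of all genes), 0 fell (against 2.83% of all genes) and 58 did not pass. Their median difference was -0.34, against -0.08 for genes with a mean of at least 8. With the intensity prior 13 were lower (22.0%) and 2 higher (3.39%), against 19.1% and 14.8% of bright genes. Both resistant arrays lay below both parental ones in 36 of the 59, or 61.0%, and above them in 5. For bright genes these shares were 40.9% lower and 30.9% higher, and for all genes 31.0% and 27.9%. NCAPG, a subunit of the condensin I complex that compacts mitotic chromosomes, was the gene that rose. Its values were 7.84 and 7.92 in parental and 9.25 and 9.40 in resistant arrays, a 2.72-fold difference of 1.44 ± 0.19 (adjusted p = 0.0395). Replicates were close in both groups. The main test called no gene at all without any 1 array, so its loss of NCAPG there is not particular to NCAPG. Over those fits the difference of NCAPG ran from 1.37 to 1.51. The intensity prior called NCAPG with all arrays (adjusted p = 0.00428) but not without resistant replicate 2. CDCA8 and INCENP, partners of Aurora B in the chromosomal passenger complex, were chosen after their values were seen. CDCA8 was lower by -1.28 ± 0.27 (adjusted p 0.0794 in the main test, 0.00554 under the intensity prior). INCENP was lower by -0.80 ± 0.26 (0.157 in the main test, 0.0216 under the intensity prior), a call lost without parental replicate 2 (0.117) or resistant replicate 2 (0.119).

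Among 12 measured genes of the RB, E2F and DREAM complexes 0 passed, and the median difference was 0.14. E2F5, a repressive family member, gave 7.65 and 8.50 in parental and 9.59 and 9.31 in resistant arrays (difference 1.38 ± 0.37, adjusted p = 0.114, or 0.0171 under the intensity prior). The call was lost without resistant replicate 1 (0.126) or resistant replicate 2 (0.059), and the difference ran from 0.95 without parental replicate 1 to 1.80 without parental replicate 2. Its dimmer row gave -0.12, so the rows of E2F5 did not share a direction. E2F4, the main E2F of resting cells, and LIN37, a DREAM subunit, differed by -0.48 ± 0.19 and -0.65 ± 0.23. Of 6 genes controlling CDK1 at checkpoints 0 passed the main test. ATR, the kinase that senses stalled forks, measured 9.87 and 10.10 in parental and 8.99 and 8.99 in resistant arrays. Both resistant values were close together and lower, by -1.0 ± 0.19. The adjusted p was 0.071, and with the intensity prior 0.00734. CDC14A, a phosphatase, differed by 1.15 ± 0.30 (adjusted p = 0.108, or 0.0113 under the intensity prior, but 0.0879 without resistant replicate 1). FZR1, the activator of the anaphase-promoting complex in G1, differed by 0.47 ± 0.25 (adjusted p = 0.31).

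**Figure D4:**
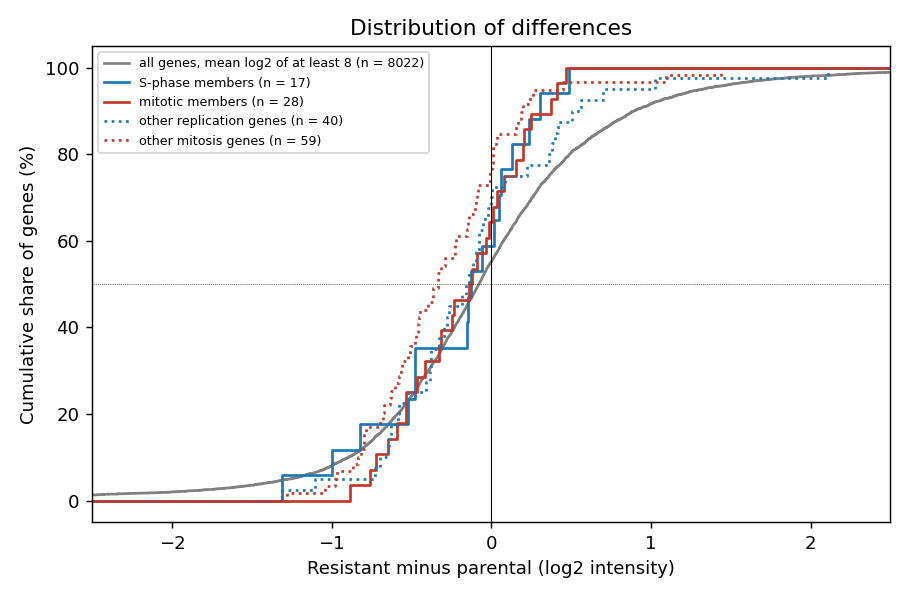
Cumulative share of genes (y axis, %) against the resistant minus parental difference in log2 intensity (x axis) for S-phase and mitotic members (solid blue and red), other replication and mitosis genes (dotted blue and red) and all genes with a mean of at least 8 (grey). The curve of the other mitosis genes crosses 50% at -0.34 and the curves of both member classes at -0.13.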

How the data were processed

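Arrays of 2 parental and 2 resistant samples were used. The values are intensity values on a linear scale that the authors deposited after RMA, per the submitters' processing notes. RMA corrects background, equalises distributions and summarises probes. Its version, the row filter and the build are not given in the sources used here. The values were log2-transformed without rescaling. Of 42152 rows, 18573 had 1 symbol (17899 from the platform annotation, 674 through RefSeq), giving 15073 genes in their brightest row. The test was limma's two-sided moderated test (lmFit, then eBayes; version 3.58.1, run in R 4.3.3) without covariates, with Benjamini-Hochberg adjustment over all genes at 0.05. The prior had 1.92 degrees of freedom beside 2 residual ones. Rose and fell are used of genes past this test. Scripts were tested on simulated data.

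The members and lists were chosen with earlier results of these data known. Values on each array are given for the 2 members with the smallest p in each role group (all of a group of up to 4) and for members past either test. In other lists genes that passed are named, or the 3 with the smallest p. Printed promoters overlap no other annotated gene, a condition added to the rule after the windows were seen, which left out MCM7. Alternatives were the prior variance, median centring, quantile normalization, the mean of a gene's rows, all rows tested together, a minimum mean of 6, a replicate block and leaving out each array. No detection calls were used, so dim rows were not set apart from background. The number of arrays limits the precision.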

Additional observations from a re-analysis of the deposited data

How the results depend on the processing

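Median centring, quantile normalization and the mean of a gene's rows left the count of members called lower at 1. It was 9 with the intensity prior (3 S-phase, 6 mitotic), 10 with that prior after centring (4 and 6), 4 among genes with a mean of at least 6 (3 and 1), and 0 with all rows tested together. The count of all genes called lower moved too. Of 15073 genes it was 427 in the main test, 1737 with the intensity prior and 2073 with that prior after centring. It was 1048 of the 11751 genes with a mean of at least 6, and 0 with all rows tested together. Members called higher numbered 0, but 1 with the intensity prior. Leaving out 1 array gave 0 to 7 members lower over both priors (0 with the constant prior, 5 to 7 with the intensity prior), 0 to 4 of S phase and 0 to 5 of mitosis (2 to 5 with the intensity prior, 2 to 4 for S phase). The median difference of S-phase members was -0.20 after centring and -0.173 to -0.045 without 1 array, and the median difference of mitotic members was -0.271 to -0.022 without 1 array.

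With the replicate number as a block, 0 members and 0 genes were called (smallest adjusted p = 0.0804, 3882 genes at an unadjusted p under 0.05), and E2F2 had an adjusted p of 0.117. The differences between replicates 1 and 2 correlated at 0.14 between the groups over 15073 genes, and at 0.03 over the 8022 with a mean of at least 8. With 2 pairs this does not show that the numbers pair samples. With the constant prior 0 genes of all were called without any 1 array or with all rows tested together (smallest adjusted p 0.0606).

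Leaving out CKS1B, a check chosen after seeing the data, gave 1 member lower, or 8 with the intensity prior (5 mitotic), and 1 higher with that prior. Genes whose sign turned had no call. Centring gave CCNA2 -0.033, CDC6 -0.021, MCM4 -0.012, MCM7 -0.055 and NUSAP1 -0.062 with either prior. The mean of a gene's rows gave CDC25C -0.062, CDK1 -0.027, HMMR 0.115, NUSAP1 -0.070 and UBE2C 0.0061, and quantile normalization UBE2C 0.021. Over the fits without 1 array AURKA ranged from -0.488 to 0.019, BUB1 from -0.333 to 0.048 (also 0.024), CCNA2 from -0.049 to 0.125 (also -0.016), CDC25A from -0.0085 to 0.265, CENPF from -0.033 to 0.857, and HMMR from -0.216 to 0.152 (also 0.126). MCM4 ranged from -0.099 to 0.217 (also -0.045), MCM6 from -0.641 to 0.334, MCM7 from -0.070 to 0.103 (also -0.061), NUSAP1 from -0.097 to 0.116 (also -0.073), TOP2A from -0.109 to 0.270 and UBE2C from -0.222 to 0.191 (also 0.058). The cause was not tested.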
